A study of Mus musculus with 6 samples.

Results

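Iron handling in the lung at ZT10 was followed through 10 genes: Slc11a1, Slc11a2, Slc40a1, Tfrc, Fth1, Ftl1, Hmox1, Cp, Steap3 and Steap4. They were found by gene symbol among the 47069 genes of the count table, and all 10 passed the filter on low counts that left 17037 genes for testing. The set was chosen by its leading gene: Slc11a1 was selected on its higher level in KO mice in these same libraries, and the other 9 were joined to it by function with the results of this contrast known. The differences between KO and WT mice are therefore given for these genes as a description. How many of them the fit called is counted once below, beside the same share over all genes, and is no evidence about genes chosen in this way. RNA was measured in whole lungs of 3 WT mice (WT4 to WT6), which were adult C57BL/6J mice, and of 3 KO mice (KO4 to KO6), adult mice on the C57BL/6J background that carry a deletion of the 5′ part of Zpbp2, exons 1 to 3 with part of the promoter. The full strain name of the KO mice includes B6.129S7, and the WT mice were bred in the same colony without being described as littermates. All 6 lungs were taken at ZT10, the tenth hour of the light phase, and the labels name no treatment.

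Cells take up iron bound to transferrin through the transferrin receptor, reduce it, carry it across the endosomal membrane, store it in ferritin and release it through ferroportin. Macrophages also recover iron from the haem of engulfed red cells. Slc11a1 belongs to this system as a phagocyte gene: it encodes NRAMP1, which pumps divalent metals out of the compartments in which phagocytes hold microbes. C57BL/6 mice are known to carry an allele of Slc11a1 that gives a non-functional protein, so the RNA measured here is not a measure of working transporter. Which allele the KO mice carry, whose strain name includes B6.129S7, was not checked. For several of the other genes control is known to act on their RNA, through iron-responsive elements, short hairpins that are bound by the iron regulatory proteins when iron is scarce. A hairpin ahead of the coding sequence holds back translation, and hairpins behind it keep the RNA from being degraded.

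The hairpins of these genes were read from the GENCODE mouse release M21 transcripts (GRCm38), to show which RNAs hold the pattern. Each sequence below runs 5′ to 3′ in 27 bases, with the 6 loop bases in capitals. The loop searched was CAGNGN on the transcript strand, with 5 bases before it that pair with the 5 bases after it, G-T pairs allowed, and a C just before that stem.
Fth1: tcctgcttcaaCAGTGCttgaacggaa
Ftl1: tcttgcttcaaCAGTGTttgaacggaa
Slc40a1: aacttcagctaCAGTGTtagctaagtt
Tfrc, element 1: tttatcagtgaCAGAGTtcactataaa
Tfrc, element 2: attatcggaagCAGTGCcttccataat
Tfrc, element 3: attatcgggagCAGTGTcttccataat
Tfrc, element 4: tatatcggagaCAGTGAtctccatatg
Tfrc, element 5: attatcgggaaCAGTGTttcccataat
The elements of Fth1 (chr19:9982733-9982759, plus strand), Ftl1 (chr7:45459780-45459806, minus strand) and Slc40a1 (chr1:45925466-45925492, minus strand) lie in the 5′ UTR. The 5 elements of Tfrc lie in its 3′ UTR on the plus strand of chromosome 16, the first at 32631161 to 32631187 and the last at 32631711 to 32631737. Of 21901 coding genes searched, 2.21% held a match in a UTR and 0.603% in a 5′ UTR, and Tfrc was the 1 gene with 3 or more matches in its 3′ UTR. Cp had 1 match in an annotated 3′ UTR. No match was found for Slc11a1, Slc11a2, Hmox1, Steap3 or Steap4, which says only that this strict pattern is not in their annotated transcripts. A match is a description of the sequence and was not read as a working element.

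The 6 libraries held between 19981428 and 46796908 counts, with KO5 the deepest. At these depths 3 counts equal between 0.0629 and 0.148 CPM (counts per megaread of library size, scaled by the TMM method), which is a floor for counting error only. For Zpbp2 the WT mice had 1, 2 and 2 counts and every KO mouse 0, too few to check the genotype. Markers of lung epithelium and endothelium summed to between 37930 and 58150 CPM, and none of these 10 defining genes was at 0 in all mice. KO5 stood apart from the other KO mice, with 842.7 CPM of summed B cell markers against 205.7 in KO4 and 240.3 in KO6, and fold changes without it are given where they matter. All 6 libraries held at least 15033 counts of Xist, and KO5 also held 9 counts of Ddx3y, 7 of Kdm5d, 6 of Uty and 2 of Eif2s3y, Y-linked genes with at most 1 count in any other library. Whether the libraries of 1 genotype were prepared together is not given in the sources used here, so a batch and the genotype cannot be told apart.

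Among the iron handling genes named at the start, those of ferritin had the highest levels per length. Other iron genes were not ranked with them. Levels of different genes were compared only per kilobase of exon. In WT mice Ftl1, the ferritin light chain, stood highest at 791.7 ± 65.4 CPM per kb (SD, n = 3), followed by Fth1, the heavy chain that oxidises iron as it enters the shell, at 455.7 ± 16.5 CPM per kb (SD, n = 3). Cp, which encodes the plasma ferroxidase ceruloplasmin, came next with 33.7 ± 1.55 CPM per kb (SD, n = 3). Tfrc at 16.3 ± 0.883 CPM per kb (SD, n = 3) and Hmox1 at 16.2 ± 0.306 CPM per kb (SD, n = 3) overlapped between mice and could not be ordered on this length. Below them lay Slc11a2 at 8.59 ± 0.135, Steap4 at 5.02 ± 0.282 and Steap3 at 4.14 ± 0.286 CPM per kb (SD, n = 3 for each). Slc11a1 at 2.04 ± 0.0598 and Slc40a1 at 1.22 ± 0.142 CPM per kb (SD, n = 3 for each) were the lowest. Apart from Tfrc and Hmox1, each gene was above the next in this order in every WT mouse. With the longest transcript as the length in place of all annotated exons, Slc40a1 (2.79 CPM per kb) and Slc11a1 (2.78 CPM per kb) could not be told apart. Under that length Tfrc (19.3 to 21.2 CPM per kb) lay above Hmox1 (17.7 to 18.4 CPM per kb) in every WT mouse, and Steap4 (4.69 to 5.21 CPM per kb) overlapped Steap3 (4.38 to 4.95 CPM per kb).

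**Figure D1:**
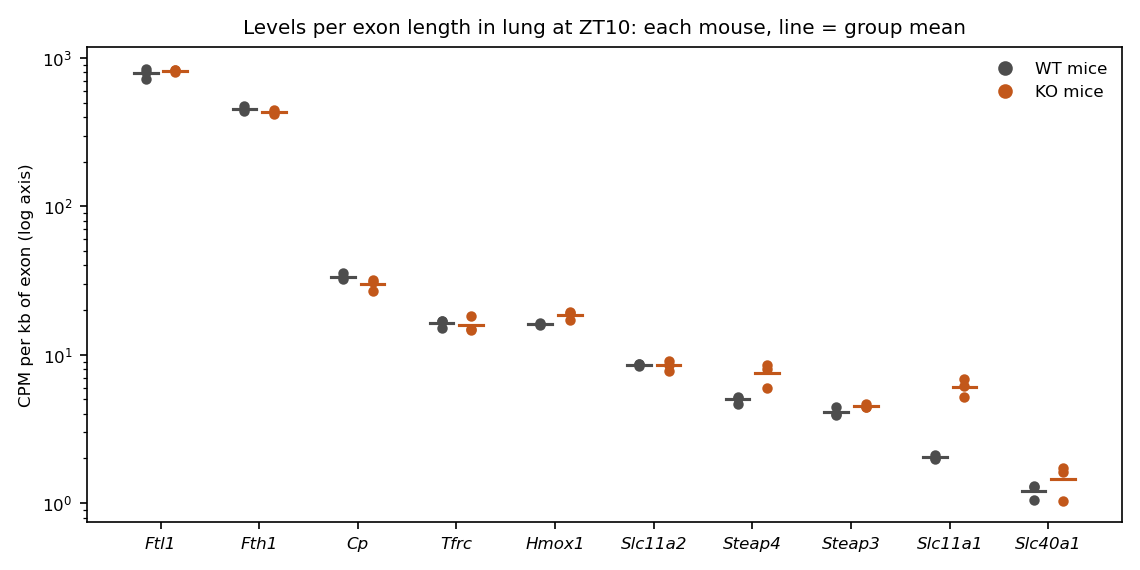
Level of each of the 10 iron handling genes in CPM per kb of exon (log axis), 1 point per mouse, with a line at the mean of the 3 WT or 3 KO mice. The 2 ferritin chains lie more than 10-fold above every other gene, and Slc11a1 is the gene whose KO points lie farthest above its WT points.

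In KO mice the same order held at the top and at the bottom, and Slc11a1 moved within it. Its level per length in KO mice was 6.10 ± 0.827 CPM per kb (SD, n = 3), above Steap3 at 4.51 ± 0.121 CPM per kb (SD, n = 3), and its lowest KO mouse lay above the highest KO mouse of Steap3, where it had lain below Steap3 in every WT mouse. Steap4 reached 7.50 ± 1.35 CPM per kb (SD, n = 3) and overlapped Slc11a2 at 8.51 ± 0.652 CPM per kb (SD, n = 3).

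Slc11a1 (ENSMUSG00000026177, chromosome 1 from 74375195 to 74386062, plus strand) had the largest difference between the genotypes among the 10 genes, which is what it was selected on. It measured 7.81, 7.38 and 7.50 CPM in WT4, WT5 and WT6 and 23.0, 19.3 and 25.4 CPM in KO4, KO5 and KO6. The lowest KO mouse stood well above the highest WT mouse, and the coefficient of variation was 2.93% among WT and 13.6% among KO mice. The log2 fold change was 1.57 ± 0.116 (SE), or 2.98 times the WT mean. Among the 17037 genes tested 98.5% had a smaller change in size. Its nearest relative, Slc11a2 (ENSMUSG00000023030, chromosome 15 from 100387898 to 100425072, minus strand), encodes DMT1, the transporter that moves iron out of endosomes in most cells. Slc11a2 measured 53.7, 55.4 and 54.7 CPM in WT4, WT5 and WT6 and 57.9, 49.7 and 54.6 CPM in KO4, KO5 and KO6. The KO values spread around the WT values, with a log2 fold change of -0.02 ± 0.0648 (SE). The ratio of Slc11a1 to Slc11a2, which does not depend on library scaling, was between 0.133 and 0.145 in the WT mice and between 0.389 and 0.466 in the KO mice.

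**Figure D2:**
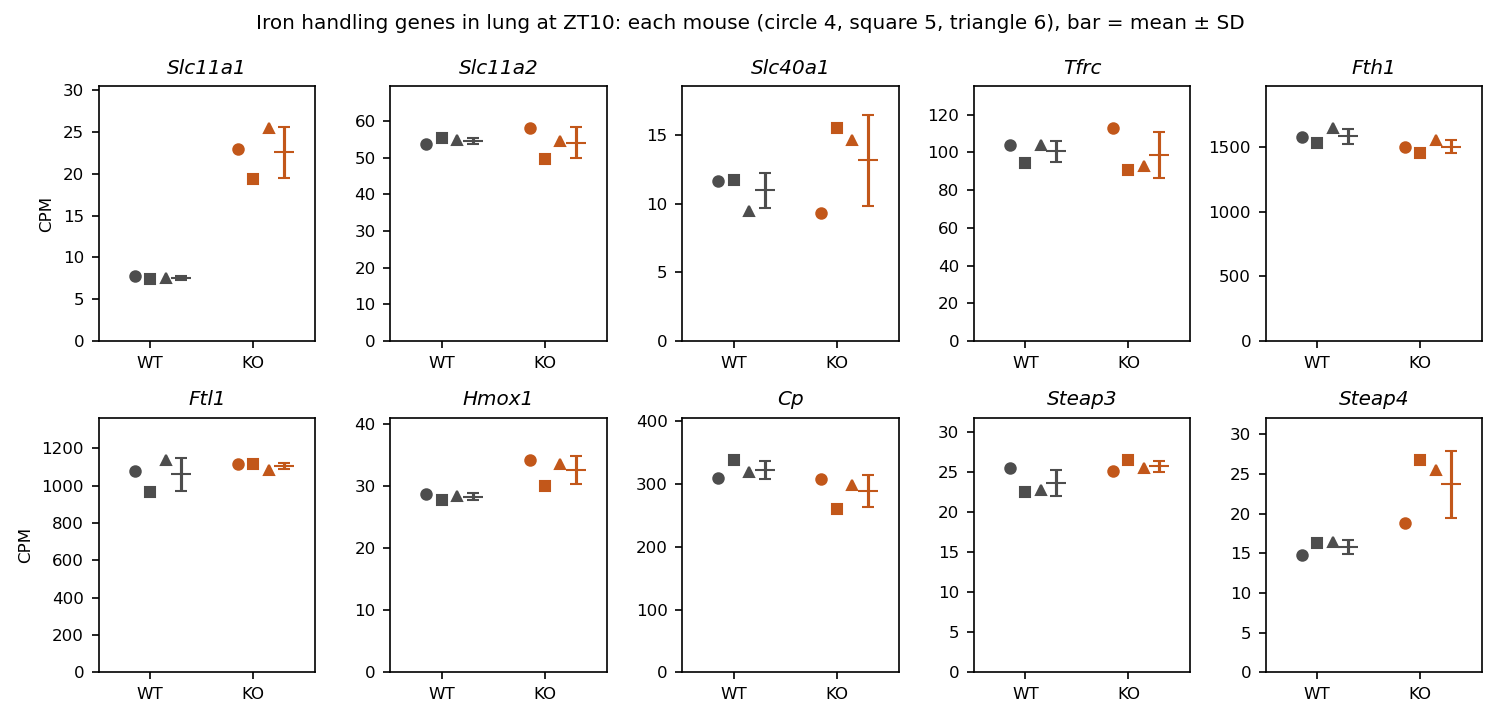
CPM of each of the 10 iron handling genes in each mouse, with the linear axis of each panel starting at 0 and the mean ± SD of 3 mice beside the points. Slc11a1 shows a wide gap between WT (7.38 to 7.81 CPM) and KO (19.3 to 25.4 CPM), Steap4 and Hmox1 a small one upward and Cp a small one downward, and the other 6 overlap.

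Uptake of transferrin iron was represented by Tfrc and Steap3. Tfrc (ENSMUSG00000022797, chromosome 16 from 32608920 to 32632794, plus strand), the transferrin receptor with the 5 hairpins shown above, measured 103.7, 94.3 and 103.7 CPM in WT4, WT5 and WT6 and 112.7, 90.5 and 92.7 CPM in KO4, KO5 and KO6. KO mice held both the highest and the lowest values, and the log2 fold change was -0.03 ± 0.0920 (SE). Steap3 (ENSMUSG00000026389, chromosome 1 from 120190757 to 120272705, minus strand) encodes the endosomal reductase that turns ferric into ferrous iron. Its levels were 25.5, 22.6 and 22.8 CPM in WT4, WT5 and WT6 and 25.2, 26.5 and 25.5 CPM in KO4, KO5 and KO6. WT4 lay among the KO mice, and the log2 fold change was 0.12 ± 0.0712 (SE).

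Steap4 (ENSMUSG00000012428, chromosome 5 from 7960457 to 7982213, plus strand), a related metalloreductase known to respond to inflammation, differed more. It measured 14.8, 16.2 and 16.4 CPM in WT4, WT5 and WT6 and 18.8, 26.7 and 25.4 CPM in KO4, KO5 and KO6. Every KO mouse was above every WT mouse, with KO4 close to the WT range and KO5 and KO6 clear of it. The log2 fold change of 0.58 ± 0.136 (SE) did not pass the threshold of the fit, and it was 0.48 without KO5 and 0.72 without KO4. The ratio of Steap4 to Steap3 was between 0.580 and 0.720 in WT mice and between 0.746 and 1.01 in KO mice.

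The genes of ferritin, the iron store, had similar values in both genotypes. Fth1 (ENSMUSG00000024661, chromosome 19 from 9980598 to 9985098, plus strand) measured 1573, 1528 and 1642 CPM in WT4, WT5 and WT6 and 1501, 1453 and 1553 CPM in KO4, KO5 and KO6. Ftl1 (ENSMUSG00000050708, chromosome 7 from 45457944 to 45459884, minus strand) measured 1079, 965.8 and 1138 CPM in the WT mice and 1114, 1115 and 1085 CPM in the KO mice, in the same order. Both genes overlapped between genotypes, with log2 fold changes of -0.07 ± 0.0625 (SE) for Fth1 and 0.06 ± 0.0740 (SE) for Ftl1. Within each mouse the ratio of Fth1 to Ftl1 CPM was 1.46, 1.58 and 1.44 in WT4, WT5 and WT6 and 1.35, 1.30 and 1.43 in KO4, KO5 and KO6. These ratios did not overlap, although WT6 and KO6 were nearly equal. Ferritin genes have many near-identical copies in the genome, and reads that match several places can be lost or split in counting. The 12 other entries with ferritin names in the table had at most 19 counts in any mouse. Of these 10 were at 0 throughout, Ftmt and the Fthl17 entries, and only Ftl2-ps and Fth-ps2 had counts. Low counts there cannot show whether reads of Fth1 or Ftl1 were lost.

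Export was represented by Slc40a1 and Cp. Slc40a1 (ENSMUSG00000025993, chromosome 1 from 45908068 to 45926523, minus strand) encodes ferroportin, the known iron exporter of macrophages. It measured 11.6, 11.7 and 9.48 CPM in WT4, WT5 and WT6 and 9.34, 15.5 and 14.6 CPM in KO4, KO5 and KO6. KO4 was the lowest of all 6 mice and KO5 and KO6 the highest, which gave Slc40a1 the largest coefficient of variation among the 10 genes in KO mice (25.3%). Slc40a1 had a log2 fold change of 0.27 ± 0.198 (SE), which was 0.46 without KO4 and 0.13 without KO5. Cp (ENSMUSG00000003617, chromosome 3 from 19957054 to 20009145, plus strand), whose product oxidises the iron that ferroportin releases, measured 308.9, 338.1 and 318.8 CPM in WT4, WT5 and WT6 and 307.6, 259.4 and 298.1 CPM in KO4, KO5 and KO6. Every KO mouse was below every WT mouse, KO4 by a narrow margin, and the log2 fold change was -0.16 ± 0.0773 (SE). Cp shares 13201 bp with Hps3 on the opposite strand. The library kit kept strand, but whether the counting used it is not given in the sources used here.

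Hmox1 (ENSMUSG00000005413, chromosome 8 from 75093621 to 75100589, plus strand) encodes haem oxygenase 1, which frees iron from haem and is induced by haem, oxidants and heat. It measured 28.9, 27.8 and 28.4 CPM in WT4, WT5 and WT6 and 34.3, 30.1 and 33.6 CPM in KO4, KO5 and KO6. The groups did not overlap, and KO5 was the KO mouse nearest to the WT mice. The log2 fold change was 0.20 ± 0.0680 (SE), and 0.26 without KO5. Of the other 9 genes it had the highest correlation with Slc11a1 from mouse to mouse, a Pearson r of 0.92 over the 6 mice and of 0.87 for the deviations from the group means. The first value includes the gap between the genotypes, and the second rests mainly on the KO mice, among which Slc11a1 varied more.

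In all, 1 of the 10 genes (Slc11a1) was called higher in KO mice and 0 were called lower at an adjusted p of at most 0.05 in edgeR's quasi-likelihood test. Over all genes tested 3.72% were called higher and 2.67% lower, and 0.640% also had a log2 fold change of at least 1.5 in size, among them Slc11a1. At an unadjusted p below 0.05, 3 of the 10 genes (Slc11a1, Steap4 and Hmox1) were higher and 0 were lower, where 13.9% of all genes tested were higher and 11.6% lower. DESeq2 called 2 higher (Slc11a1 and Steap4) and 0 lower, against 6.47% and 4.76% of all genes tested. The KO values lay above the WT values for 3 of the 10 genes and below them for 1, where 17.0% of all genes tested lay above and 15.6% below. The median log2 fold change of the 9 genes other than Slc11a1 was 0.06, and that of all genes tested 0.003. Without WT5, Slc11a1 was not called (log2 fold change 1.56), in a fit that called 1 gene of all those tested. None of these counts was read as a result about the genes, since the contrast had chosen them.

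The rest of the iron system was taken from 4 lists with 69 genes tested of 78 named, none of them among the 10. The median of their log2 fold changes was -0.03, and 29 had a value above 0 and 40 below. Of the 69 genes, 1 rose and 3 fell (5.80% called in all), against the 3.72% and 2.67% of all genes tested that were called in each direction. Alas2, the haem synthesis enzyme of red cell precursors, fell from 104.3 ± 0.809 CPM in WT mice to 55.8 ± 12.6 CPM in KO mice (SD, n = 3), a log2 fold change of -0.90 (SE 0.142) at an adjusted p of 0.0227 by edgeR's quasi-likelihood test. It measured 104.6, 104.9 and 103.4 CPM in WT4, WT5 and WT6 and 47.6, 70.3 and 49.5 CPM in KO4, KO5 and KO6, so that the groups lay far apart. Alas2 carries a hairpin of the same kind in its 5′ UTR (chrX:150547459-150547485, plus strand), which is shown for comparison with those of ferritin.
Alas2: tggttcgtcctCAGTGCagggcaacag
Abcg2, an exporter that also carries porphyrins, rose from 31.5 ± 0.500 to 39.6 ± 2.76 CPM (SD, n = 3), a log2 fold change of 0.33 (SE 0.0652) at an adjusted p of 0.0354 by edgeR's quasi-likelihood test.

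In the mitochondrion, where iron-sulphur clusters are built, 2 of 20 genes tested fell and 0 rose, against 2.67% and 3.72% of all genes tested. Fdx1, a ferredoxin that passes electrons to steroid synthesis, fell from 52.3 ± 3.82 to 41.3 ± 1.99 CPM (SD, n = 3). Its log2 fold change was -0.34 (SE 0.0701) at an adjusted p of 0.0389 by edgeR's quasi-likelihood test. Isca1, a cluster assembly factor, fell from 61.4 ± 1.26 to 51.7 ± 2.48 CPM (SD, n = 3), with a log2 fold change of -0.25 (SE 0.0530) at an adjusted p of 0.0423 by edgeR's quasi-likelihood test. At an unadjusted p below 0.05, 3 of the 20 were higher and 5 lower, against 13.9% and 11.6% of all genes tested. Slc25a37, the mitochondrial iron importer, had a log2 fold change of -0.04 ± 0.0975 (SE). When 1 mouse was left out at a time, each of the 4 called genes lost its call in at least 4 of the 6 fits, and no fit without WT4, WT5, WT6 or KO6 called any of the 69. Their log2 fold changes kept their signs, between -1.11 and -0.80 for Alas2.

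The sensors and the carriers did not pass the test. Their counts at an unadjusted p below 0.05 are to be read against the 13.9% of all genes tested that were higher and the 11.6% that were lower, and those by DESeq2 against 6.47% and 4.76%. Among 12 genes of iron sensing and ferritin turnover, 0 were called by edgeR's quasi-likelihood test, 3 were lower and 0 higher at an unadjusted p below 0.05, and DESeq2 called 1 lower. Aco1 and Ireb2, which encode the iron regulatory proteins that bind the hairpins shown above, had log2 fold changes of -0.01 ± 0.0581 (SE) and 0.01 ± 0.0592 (SE). Ncoa4, which delivers ferritin for breakdown, had a log2 fold change of 0.07 ± 0.0872 (SE). Of 16 genes of transferrin and iron transport, 0 were called, 3 were higher and 2 lower at an unadjusted p below 0.05, and DESeq2 called 3 higher and 1 lower. Trf, transferrin itself, measured 89.3 ± 4.52 CPM in WT and 79.8 ± 2.88 CPM in KO mice (SD, n = 3), a log2 fold change of -0.16 ± 0.0558 (SE). Slc39a14, a carrier of iron not bound to transferrin, had a log2 fold change of 0.02 ± 0.0656 (SE). Of the 21 haem genes 1 rose (Abcg2) and 1 fell (Alas2), against 3.72% and 2.67% of all genes tested. Hp, whose product haptoglobin binds free haemoglobin, measured 859.6 ± 111.3 CPM in WT and 609.2 ± 89.1 CPM in KO mice (SD, n = 3), a log2 fold change of -0.50 (SE 0.133) at an adjusted p of 0.0710 by edgeR's quasi-likelihood test. Hmox2, the constant partner of Hmox1, had a log2 fold change of 0.11 ± 0.0770 (SE).

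**Figure D3:**
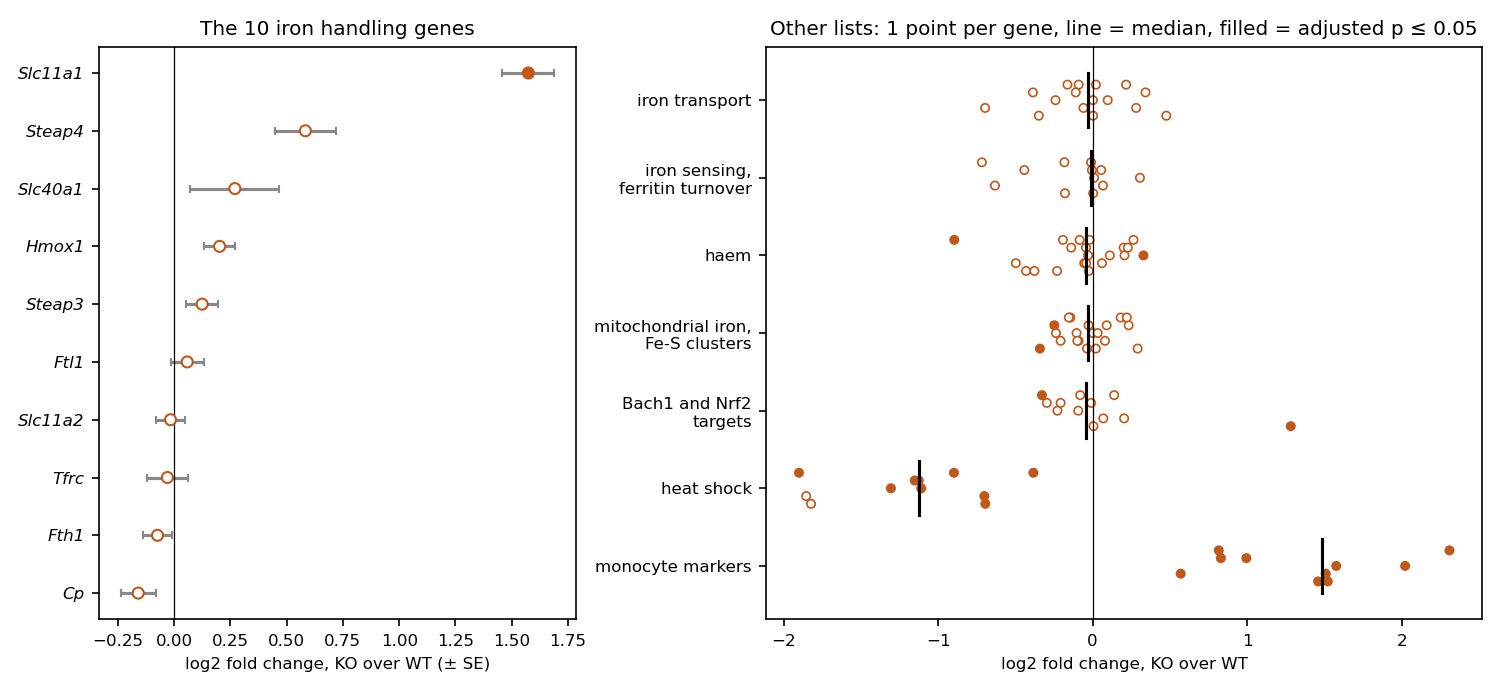
Log2 fold changes of KO over WT mice for the 10 iron handling genes with their standard errors (left) and for the genes of 7 other lists (right), where the line is the median of a list and filled points have an adjusted p of at most 0.05. Slc11a1 stands at 1.57 while the medians of the 4 iron lists lie between -0.04 and -0.01, that of the heat shock genes at -1.13 and that of the monocyte markers at 1.48.

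Hmox1 was also set beside genes with which it shares known inducers. Of 12 genes for Bach1, Nrf2 and Nrf2 targets, 1 rose and 1 fell, with a median log2 fold change of -0.05. Over all genes tested 3.72% were called higher and 2.67% lower. Slc7a11, the cystine importer, rose from 1.56 ± 0.0604 to 3.84 ± 1.45 CPM (SD, n = 3), a log2 fold change of 1.28 (SE 0.294) at an adjusted p of 0.0492 by edgeR's quasi-likelihood test. Mafg, a DNA-binding partner of both factors, fell with a log2 fold change of -0.33 (SE 0.0495) at an adjusted p of 0.0207 by edgeR's quasi-likelihood test. With 1 mouse left out, Slc7a11 was called in 1 and Mafg in 3 of the 6 fits. Of 11 heat shock genes 9 fell and 0 rose, with 11 lower at an unadjusted p below 0.05 and 9 called lower by DESeq2. Over all genes tested 11.6% were lower at an unadjusted p below 0.05, and DESeq2 called 4.76% lower. The heat shock list was drawn up with earlier results of these data known, so its counts are a description only. The paper lists its member Hsph1 as lower in KO mice at ZT10, from these same libraries. The lowest adjusted p-values were those of Dnajb1, Hsph1, Hspa8, Hspd1 and Hsp90aa1, chaperones and their helpers, with log2 fold changes between -1.90 and -0.70. The list had a median of -1.13, and their summed level was 3074 to 4201 CPM in WT mice and 1553 to 1698 CPM in KO mice. Hmox1, which heat induces too, was not lower in any KO mouse than in any WT mouse. Whether Hmox1 shares a cause with any of these genes was not tested.

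Slc11a1 is known to be expressed by phagocytes, and the markers of monocytes and part of those of neutrophils were higher in KO mice too. Part of the macrophage markers was also higher, while the summed macrophage markers overlapped between genotypes. A change in the number of cells of a type and a change in RNA per cell cannot be told apart in whole lung. The counts of markers called are to be read against the 3.72% of all genes tested that were called higher and the 2.67% called lower. The marker lists were drawn up with earlier results of these data known, so their counts and medians are a description only. Of the monocyte markers, Cx3cr1, Ms4a6c, Ms4a4c, Cd300e and Adgre4 are among the genes that the paper lists as higher in KO mice at ZT10, from these same libraries. All 10 monocyte markers tested rose in KO mice, with a median log2 fold change of 1.48. Their summed level was 238.2 to 294.1 CPM in WT mice and 467.5 to 594.9 CPM in KO mice. Of 8 neutrophil markers tested 3 rose and 0 fell, and their sum was 61.0 to 99.6 CPM in WT mice and 154.5 to 175.9 CPM in KO mice. For alveolar macrophages 1 of 11 markers rose (Marco), and the sums overlapped at 640.6 to 969.3 CPM in WT mice and 766.8 to 991.3 CPM in KO mice. Of 8 markers of other tissue macrophages 4 rose and 0 fell (Cd68, C1qa, C1qb and C1qc) while their sum overlapped between genotypes. Lyve1, which lymphatic vessels also express, gave 348.6 of 482.3 CPM in WT and 203.2 of 410.6 CPM in KO mice. The KO values lay above all WT values for 6 of the 8 markers and below them for 1 (Lyve1). Over all genes tested 17.0% lay above and 15.6% below. Without Lyve1 the sum of this list was higher in every KO mouse than in any WT mouse.

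Slc11a1 per unit of these markers was computed in each mouse as a description. Per summed monocyte marker CPM, the Slc11a1 ratio was 0.0266, 0.0310 and 0.0303 in WT4, WT5 and WT6 and 0.0486, 0.0414 and 0.0427 in KO4, KO5 and KO6. All KO ratios were above all WT ratios, by 1.51 times on average, where Slc11a1 itself was 2.98 times higher. Csf1r, a receptor of monocytes and macrophages, was the largest part of this sum, with 135 CPM in WT and 200.4 CPM in KO mice on average. Its log2 fold change of 0.57 was the smallest of the monocyte markers, so the 1.51 depends on it. Without Csf1r the monocyte sum rose more, and the excess of Slc11a1 over it was smaller than 1.51 times. Per neutrophil marker sum, the Slc11a1 ratio was 0.0741 to 0.123 in WT mice and 0.119 to 0.149 in KO mice, and the groups overlapped, with means 1.45 times apart. The KO ratios were above the WT ratios in every mouse for the other 4 denominators, by 2.60 times per alveolar macrophage sum, 3.51 times per sum of other macrophage markers, 1.99 times per Csf1r and 1.71 times per Cd68. The 3.51 depends on Lyve1, the largest part of that sum, which was lower in KO mice (203.2 CPM) than in WT mice (348.6 CPM). The largest parts of the alveolar sum in WT mice were Chil3 (387.4 CPM) and Car4 (161.5 CPM). The part of these cells in the higher Slc11a1 level was not tested.

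Red cell markers moved with Alas2. Of 6 erythroid markers tested 4 fell (Hba-a1, Hba-a2, Hbb-bs and Hbb-bt) and 0 rose, against 2.67% and 3.72% of all genes tested. The median log2 fold change of these markers was -0.87, close to the -0.90 of Alas2. Their summed level was 2029 to 2176 CPM in WT mice and 990.2 to 1344 CPM in KO mice, and 0 of the 7 markers in the table were at 0 in all mice. The part of blood in the level of Alas2 was not tested. None of 8 B cell, 7 T cell, 10 lung and 8 immediate early genes was called by edgeR's quasi-likelihood test. At an unadjusted p below 0.05, 8 B cell and 6 T cell genes were higher, and 4 lung and 2 immediate early genes were lower. DESeq2 called 7 B cell and 4 T cell genes higher and 4 lung genes and 1 immediate early gene lower. Over all genes tested the shares were 13.9% higher and 11.6% lower at an unadjusted p below 0.05, and 6.47% and 4.76% by DESeq2.

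**Figure D4:**
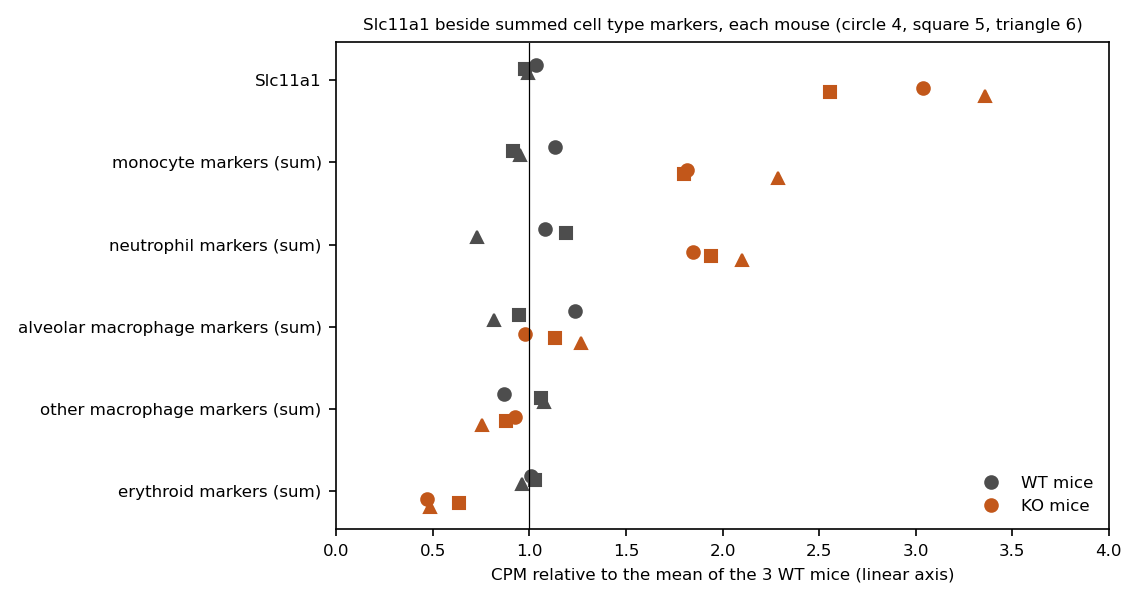
CPM of Slc11a1 and summed CPM of 5 marker lists in each mouse, divided by the mean of the 3 WT mice (linear axis from 0). Slc11a1, the monocyte sum and the neutrophil sum are higher in all 3 KO mice than in any WT mouse, the 2 macrophage sums overlap between genotypes, and the erythroid sum is lower in all 3 KO mice. Lyve1 is the largest part of the sum of other macrophage markers.

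Among the genes whose log2 CPM followed Slc11a1 most closely over the 6 mice, by Pearson r and with no test, were Pla2g7 (0.998), Glb1l2 (0.996), Pik3r6 (0.994) and Sirt5 (0.994). Much of such a value over these mice is the gap between the genotypes, and 14 of the other 17036 genes reached an r of 0.99. Pla2g7, which encodes a lipoprotein-associated phospholipase of macrophages, measured 11.7 CPM in WT and 28.8 CPM in KO mice on average. Glb1l2, Pik3r6 and Sirt5 had much smaller log2 fold changes, of 0.33, 0.18 and 0.39. For the deviations from the group means, which leave that gap out, the nearest were Bri3 (r = 0.998), Nadk (r = 0.996), Smox (r = 0.994), Prkaa2 (r = 0.994) and Treml4 (r = 0.993). Slc11a1 varied by 2.93% among WT and 13.6% among KO mice, so an r of deviations rests mainly on the 3 KO mice. How many genes reached 0.99 by this measure was not counted. Treml4, a receptor of myeloid cells, measured 16.6, 10.6 and 24.5 CPM in KO4, KO5 and KO6, the same order of KO mice as Slc11a1. The Pearson r of the deviations with Slc11a1 was 0.68 for Fth1, 0.66 for Cp, 0.65 for Slc11a2, 0.28 for Tfrc, -0.05 for Ftl1, -0.11 for Steap3, -0.21 for Slc40a1 and -0.32 for Steap4.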

How the data were processed

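Per the submitters' processing notes in the labels, which name tools but not their order, the authors trimmed reads with Trimmomatic 0.36, aligned them to GRCm38 with STAR 2.5.3a and counted them per gene with HTSeq 0.6.0, with Picard 2.9.0 also named. The values deposited by the authors are whole counts per Ensembl gene for each mouse, without normalization, for 47069 genes. The annotation release and the strand setting of counting are not given in the sources used here. The labels do not say more of the mice than genotype, strain and time, so p-values measure the spread between these 3 and 3 libraries.

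KO was compared with WT mice in R 4.3.3 with edgeR 4.0.16 (glmQLFit and glmQLFTest over all 17037 genes kept by filterByExpr, minimum count 10, TMM factors, no covariates) and Benjamini-Hochberg adjustment over all of them. A gene was called at an adjusted p of at most 0.05. Standard errors are the size of the log2 fold change divided by the square root of F. CPM used TMM-scaled library sizes. Positions, exon lengths and transcripts came from GENCODE mouse release M21 (GRCm38), which placed 46488 of the genes. The fits were tested on simulated data. The replicate numbers did not pair the mice, as the closing section gives.

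The 10 genes, the gene lists and the rule for named genes were chosen with earlier results of these data known. The text names all 10, in each iron list up to 5 called genes per direction with the lowest adjusted p and 8 fixed ones, and the 5 genes most like Slc11a1 by each of 2 correlations, of which 1 is not reported here. Alternatives were DESeq2 1.42.0, its size factors, upper-quartile factors, other filters, a replicate block, the longest transcript as length, and each mouse left out. Python 3.11.15 (pandas 2.3.3, NumPy 2.4.6) was used for the tables and Matplotlib 3.10.9 for the plots.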

Additional observations from a re-analysis of the deposited data

How the results depend on the processing

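The 10 fold changes were recomputed under 12 alternatives each, and all 120 values moved by less than the pooled SD between mice of a genotype; 4 changed sign, those of Tfrc without KO5 (0.03) and without KO6 (0.01), Slc11a2 without KO5 (0.04) and Ftl1 without WT5 (-0.01). The count of these genes called higher was 2 with DESeq2, with upper-quartile factors, without a filter and with at least 10 counts in every library, and between 0 and 2 with each mouse left out, with 0 called lower under any of these. The added gene was Steap4, also without KO4, or Hmox1 without KO5, and Slc11a1 was lost without WT5. Of the wider iron genes DESeq2 called 4 higher and 7 lower, the fit without a filter called 2 higher, and with each mouse left out between 0 and 3 were called higher and between 0 and 2 lower. With the replicate number as a block (replicate block), 1 of the 10 genes was called higher, and 0 of the wider genes were called higher and 0 lower. Same-numbered mice did not deviate together (correlations of -0.032, -0.154 and -0.021), so the numbers were not taken as pairs. The genes called over the whole table fell from 634 higher and 455 lower to 30 and 36 with that block, to 0 and 1 without WT5, to 25 and 38 without WT6, to 144 and 110 without WT4, and to 74 and 43 without KO6. With the longest transcript as length, WT levels were 1096 for Ftl1, 766.7 for Fth1, 70.5 for Cp, 20.6 for Tfrc, 18.1 for Hmox1, 12.4 for Slc11a2, 4.58 for Steap3, 2.78 for Slc11a1 and 2.79 for Slc40a1, in CPM per kb. The cause of these changes was not tested. Zpbp2, at 0 to 2 counts, was too low at this depth for any comparison.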
